A study of Mus musculus with 6 samples.

Results

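Carbonic anhydrase transcripts were followed in fat labelled epididymal white adipose tissue, with 7 genes of 14291 taken from the deposited table. The genes are Car2, Car3, Car4, Car5b, Car8, Car9 and Car13. They were chosen by name from a list of 9, of which the levels of Car6 and Car14 were not analysed here. Presence in the table, which leaves out genes of low level, and the abundance of Car3 were part of that choice, so both are given as description only. PolyA-selected RNA was sequenced in 3 wild-type libraries, from mice labelled Prmt5flox/flox, and in 3 Prmt5 knockout libraries, labelled Prmt5AKO. PRMT5 is an enzyme that methylates arginines on histones and splicing proteins. The sources used here do not give the age of the mice, the Cre driver or the cells that lose the gene. No label ties a library to an animal of its own, so a p-value reflects only how these libraries spread, and that spread may be technical.

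Carbonic anhydrases are zinc enzymes that turn carbon dioxide and water into bicarbonate and a proton, and back. The family members differ mainly in where they sit: Car2, Car3 and Car13 are cytosolic, Car5b is mitochondrial, Car4 is tethered to the outer cell surface by a lipid anchor, and Car9 spans the plasma membrane. Car8 is a carbonic anhydrase-related protein without enzyme activity. In fat, Car3 is known as an abundant protein of adipocytes with slow turnover of carbon dioxide, and the mitochondrial enzyme is known to supply bicarbonate to pyruvate carboxylase.

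Both kinds of sequence below are given as background. The first is the longest run of bases that transcripts of Car3 share with those of Car5b, shown because Car3 reads outnumber all others of the family. It is 21 bases long and lies in the coding sequence of Car3 at chr3:14866880-14866900 on the + strand (GRCm38, GENCODE M21). Capitals mark the 14 bases that Car2 also holds.
Car3: GGCTCTGAGCACACcgtggac
Over the 11 other carbonic anhydrase genes in the table, the longest run shared with Car3 was 10 to 21 bases. Neither read length nor the treatment of reads that match several genes is stated for these libraries. The second is the stretch of 250 bases before the start site of Car9 at chr4:43506776-43507025 on the + strand (RefSeq, GRCm38.p6). Car9 is a textbook target of hypoxia-inducible factors in human cells, and genes induced by hypoxia are described further on. Capitals mark CACGT, the other strand's reading of ACGTG, which is a form of the core of the hypoxia response element.
Car9: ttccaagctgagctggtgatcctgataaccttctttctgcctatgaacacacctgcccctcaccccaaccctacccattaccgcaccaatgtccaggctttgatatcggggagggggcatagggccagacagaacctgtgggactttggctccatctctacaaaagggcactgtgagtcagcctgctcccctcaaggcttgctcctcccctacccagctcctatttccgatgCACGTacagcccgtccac
The match lay 18 to 14 bases before the start site, and ACGTG on either strand was found in 16.6% of 27025 promoters of the same length. It is a match of letters only.

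Total counts ran from 17489530 to 26403882 per library. Levels are in CPM, the share of a library's counts per the usual fixed total, scaled by edgeR's TMM factors, and genes are compared with each other only in CPM per kb of exonic length. Prmt5 stood at 37.5, 59.9 and 40.8 CPM in wild type and at 14.8, 22.4 and 28.5 CPM in knockout, with no overlap. Its mean in knockout was 47.5% of that in wild type (log2 fold change -1.08, adjusted p = 0.467, edgeR with genotype only). Some differences between libraries did not follow genotype. Principal component 1 of log2 CPM held 61.8% of the variance and placed wild-type replicates 1 and 3 and knockout replicate 1 on its negative side. Xist is a transcript of the inactive X chromosome of females, while the labelled depot is found in males. It stood at 958.1, 106.1 and 509.7 CPM in wild type and at 1044, 45.6 and 47.2 CPM in knockout. Of 5 sex-linked transcripts listed, only Xist was tested. The Y-linked Ddx3y, Eif2s3y, Kdm5d and Uty were not among the genes tested, and the sex of the mice was not settled. Adipocyte markers were abundant, with 10 of 10 tested and a summed level of 29560 to 56820 CPM, while 0 of 12 epididymis and testis markers were among the genes tested. In whole tissue, fewer cells of a type and less RNA per cell cannot be told apart. The deposited p-values matched a fit with a term that sets replicate 1 of each genotype apart from the others. The grouping is called a batch because the submitters' name for the table holds the word, and values with this term stand beside those with genotype only.

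Car3 made up nearly all of the carbonic anhydrase transcript in both genotypes. Its level was 11760, 9371 and 11060 CPM per kb in wild type and 10410, 9698 and 6315 CPM per kb in knockout. By this measure its rank among all genes was 3 in all 3 wild-type libraries, 2 in knockout replicates 1 and 2 and 7 in knockout replicate 3. In raw counts it took 1.95% of wild-type replicate 1 (95% Wilson interval 1.95 to 1.96%, which covers counting error only) and 0.831% of knockout replicate 3 (0.827 to 0.835%). The next gene in order was Car5b, and Car3 exceeded it 80.8-fold in wild type and 102.2-fold in knockout. Below Car5b came Car4, Car13, Car2, and then Car9 and Car8. In 6 of 6 libraries each gene from Car3 down to Car2 stood above the next, with no overlap within a genotype. Car9 and Car8 are the exception: Car9 stood above Car8 in 3 of 6 libraries, all of them knockout, and their wild-type ranges overlapped.

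**Figure D1:**
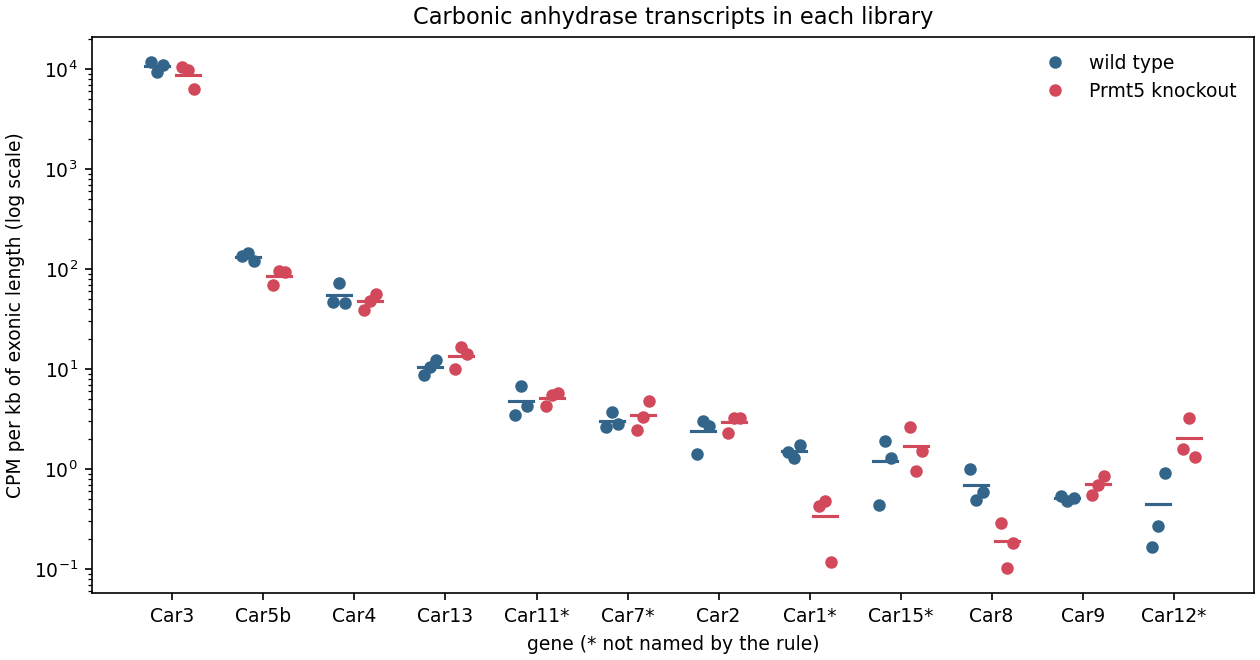
Level of the 12 carbonic anhydrase genes in the table, in CPM per kb of exonic length on a log axis, with 1 point per library and a line at each genotype mean (n = 3 each). Car3 stands about 2 orders of magnitude above Car5b. The wild-type and knockout points do not overlap for Car5b, Car8 and Car1, lower in knockout, and for Car9 and Car12, higher in knockout. Of all genes, 14.5% had no overlap in either direction.

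Car3 was not called between the genotypes. The gene lies on chromosome 3 at 14863538 to 14872373 (mm10). It stood at 17990, 14330 and 16920 CPM in wild type and at 15920, 14830 and 9655 CPM in knockout. Knockout replicate 3 was the lowest library and the groups overlapped. The means were 16410 ± 1880 and 13470 ± 3348 CPM (SD, n = 3 each), or 82.1% of the wild-type level in knockout. The log2 fold change was -0.28 (SE 0.40, 95% interval -1.20 to 0.63, adjusted p = 0.749, edgeR). With the batch term it was -0.29 (95% interval -0.91 to 0.32, adjusted p = 0.485, edgeR), and the log2 ratio of knockout to wild type was -0.18 within replicate 1 and -0.35 within replicates 2 and 3. Without knockout replicate 3 the genotype-only value was -0.094 (adjusted p = 0.997, edgeR), and with length and GC offsets it was -0.11. The libraries on the negative side of principal component 1 held the 3 highest Car3 values, 15920 to 17990 CPM, against 9655 to 14830 CPM in the others. Adipocyte markers summed to 40680 to 56820 CPM in wild type and 29560 to 45210 CPM in knockout. The 10 markers were split in direction, with 5 higher in knockout and a median of 0.041 on the log2 scale. The most abundant, Fabp4 and Cfd, were lower in knockout. Means in wild type and knockout were 15250 and 11340 CPM for Fabp4, and 13580 and 5519 CPM for Cfd. Adipoq, Plin1, Lipe, Pnpla2 and Retn were higher. The part of principal component 1 or of adipocyte content in the Car3 values was not tested.

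Car3 is also a gene of skeletal muscle, whose markers varied widely between the libraries. Summed over 13 of 13 markers tested, they stood at 1857, 205.7 and 3547 CPM in wild type and at 500.7, 1185 and 2190 CPM in knockout. The myosin gene Myh4 was at 0 in wild-type replicate 2 and the creatine kinase gene Ckm at 0.156 CPM there, while Car3 stood at 14330 CPM in that library. The fast myosin genes Myh1 and Myh4 and the slow myosin gene Myh7 were the 3 markers with a library at 0, all in wild-type replicate 2. Other markers of the list were present in that library, with the skeletal actin gene Acta1 at 140.1 CPM and the myosin light chain gene Myl1 at 57.6 CPM. Acta1 was the only 1 of the 13 with a log2 fold change above 0 (0.56), and it held 1007 of the 1185 CPM in knockout replicate 2. The median of the 13 was -1.515, with 0 called in either fit. The part of muscle in the Car3 values was not tested.

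**Figure D2:**
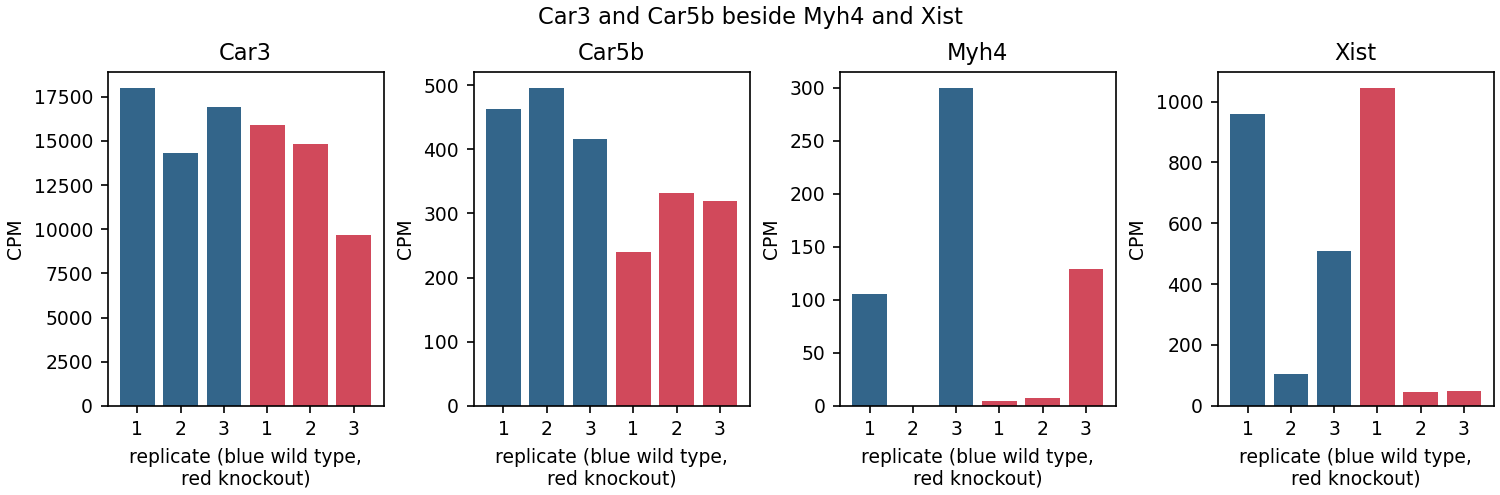
CPM of Car3, Car5b, the muscle myosin gene Myh4 and Xist in each library, each on its own axis from 0, wild type in blue and knockout in red. Car3 stands at 14330 CPM in the wild-type library with 0 CPM of Myh4, and Car5b is lower in each knockout library than in any wild-type library.

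Car5b, the mitochondrial enzyme, was the member with the second-highest level and stood lower in all knockout libraries. The X-linked gene spans 163976822 to 164028010 (mm10). It was at 462.1, 495.4 and 416.2 CPM in wild type and at 240.1, 332.1 and 319.9 CPM in knockout. The highest knockout library was below the lowest wild-type library. The means were 457.9 ± 39.8 and 297.4 ± 49.98 CPM, so knockout held 64.9% of the wild-type level. Its log2 fold change of -0.62 (SE 0.27, unadjusted p = 0.0511, adjusted p = 0.572, edgeR) did not pass the threshold. With the batch term it was -0.64 (SE 0.20, 95% interval -1.10 to -0.17, adjusted p = 0.146, edgeR). Within replicate 1 the log2 ratio of knockout to wild type was -0.95, and within replicates 2 and 3 it was -0.48. With offsets that remove trends with transcript length and GC the value was 0.055 with genotype only and -0.097 with the batch term, so the direction turned in the first fit and not in the second. In each genotype the library with the least Xist, replicate 2, had the most Car5b. Knockout replicate 1 had the most Xist and the least Car5b of its group, while wild-type replicate 1 had the most Xist of its group and the middle Car5b value. The part of Xist or sex in the Car5b values was not tested.

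Car8, the member without enzyme activity, stood lower in knockout at a low level. The protein is known for binding the inositol trisphosphate receptor, and the gene spans 8141493 to 8239041 of chromosome 4 (mm10). It stood at 5.68, 2.80 and 3.35 CPM in wild type and at 1.66, 0.592 and 1.04 CPM in knockout. All knockout libraries were below all wild-type libraries. These values rest on 128, 72 and 90 counts in wild type and 34, 13 and 21 in knockout. As shares of all counts, the 95% Wilson intervals of wild-type replicate 2 (0.000217 to 0.000343%) and knockout replicate 1 (0.000139 to 0.000272%), the closest pair, overlapped, and these cover counting error only. Its mean in knockout was 27.8% of that in wild type. The log2 fold change was -1.84 (SE 0.54, 95% interval -3.10 to -0.58, unadjusted p = 0.00991, adjusted p = 0.418, edgeR). With the batch term it was -1.86 (SE 0.43, unadjusted p = 0.0024, adjusted p = 0.0979, edgeR), with log2 ratios of -1.77 within replicate 1 and -1.92 within replicates 2 and 3. It did not pass in either fit, and with length and GC offsets the genotype-only value was -1.18 (adjusted p = 0.319, edgeR). DESeq2 gave -1.84 with genotype only (adjusted p = 0.0601). With a library left out of the genotype-only fit, the adjusted p was 0.0581 to 0.95 (edgeR).

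Car9, the plasma membrane enzyme, was near the floor of the table. The gene spans 43507026 to 43513725 of chromosome 4 (mm10). It stood at 1.06, 0.935 and 1.00 CPM in wild type and at 1.08, 1.37 and 1.68 CPM in knockout. The groups did not overlap, but wild-type replicate 1 and knockout replicate 1 were within 0.013 on the log2 scale. Counts were 22 to 34 per library, and the 95% Poisson intervals of the lowest (13.8 to 33.3) and the highest (23.6 to 47.5) overlapped. The log2 fold change was 0.45 (SE 0.45, adjusted p = 0.673, edgeR), with log2 ratios of 0.013 within replicate 1 and 0.65 within replicates 2 and 3, and 0.17 with length and GC offsets. An antisense gene model in GENCODE M21 overlaps a Car9 exon, and without a stated strand setting its reads cannot be told apart from those of Car9.

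Car4, Car13 and Car2 overlapped between the genotypes. Car4 (chromosome 11), the surface-anchored enzyme of capillary endothelium and other cells, stood at 60.5, 94.5 and 59.0 CPM in wild type and at 50.5, 62.5 and 73.9 CPM in knockout. Wild-type replicate 2 was the highest library, and the log2 fold change of -0.20 (95% interval -0.88 to 0.49, adjusted p = 0.765, edgeR) became 0.060 without it. With length and GC offsets it was -0.46 (unadjusted p = 0.0467, adjusted p = 0.358, edgeR), and also -0.46 with the batch term as well (unadjusted p = 0.0247, adjusted p = 0.156, edgeR). Its log2 ratio was -0.26 within replicate 1 and -0.17 within replicates 2 and 3. Endothelial markers, 10 of 10 tested, summed to 1069 to 1571 CPM in wild type and 1133 to 1572 CPM in knockout. Car13 (chromosome 3), a cytosolic enzyme, stood at 20.1, 24.1 and 28.0 CPM in wild type and at 22.9, 38.5 and 32.4 CPM in knockout. Knockout replicates 2 and 3 were the highest libraries (log2 fold change 0.38, 95% interval -0.30 to 1.06, adjusted p = 0.627, edgeR), and its log2 ratios were 0.19 within replicate 1 and 0.45 within replicates 2 and 3. With length and GC offsets the Car13 value was 1.07 (adjusted p = 0.332, edgeR), and 0.94 with the batch term as well (adjusted p = 0.0742, edgeR). Car2 (chromosome 3), the fast cytosolic enzyme of many tissues, stood at 2.53, 5.41 and 4.84 CPM in wild type and at 4.15, 5.74 and 5.83 CPM in knockout. Wild-type replicate 1 was lowest, at 57 counts (log2 fold change 0.30, 95% interval -0.66 to 1.26, adjusted p = 0.748, edgeR), and without it the value was 0.033. Its log2 ratio was 0.71 within replicate 1 and 0.17 within replicates 2 and 3.

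Counted together, 0 of 7 members passed at an adjusted p under 0.05 in edgeR's genotype-only fit, in which 0% of 14291 genes were called and 1233 had an unadjusted p under 0.05. DESeq2 called 171 genes higher and 100 lower, also with 0 members among them. With the batch term 0 of 7 passed, against 0.504% of all genes. At an unadjusted p under 0.05, Car8 was the single member with genotype only, against 8.63% of all genes (3.37% lower and 5.26% higher), and Car8 and Car5b were the 2 with the batch term, against 24.5%. No overlap with lower knockout values was found for 2 members, Car5b and Car8, where 6.2% of all genes had none. No overlap with higher knockout values was found for 1, Car9, where 8.32% of all genes had none. The median log2 fold change of the 7 was -0.20, against -0.016 over all genes tested, with 4 of 7 below 0 where 51% of all genes were. Car8 was the single member at least 2-fold lower, against 6.56% of all genes, and 0 members were at least 2-fold higher, against 4.35%.

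The make-up of the family was set by Car3. Its share of the summed CPM per kb of the 7 members was 98.4, 97.6 and 98.4% in wild type and 98.9, 98.3 and 97.4% in knockout. The means were 98.1 ± 0.46% and 98.2 ± 0.73%, and the difference of 0.070 percentage points had p = 1.0 in an exact two-sided permutation test over libraries, where 0.10 is the smallest p that 3 against 3 allows. Summed over the 6 members other than Car3, the level was 192.3, 230.8 and 182.1 CPM per kb in wild type and 121.6, 165.1 and 168.0 CPM per kb in knockout, with no overlap. Of that sum Car5b held 69.7, 62.2 and 66.3% in wild type and 57.3, 58.3 and 55.2% in knockout. Car13 held 4.55, 4.54 and 6.70% in wild type and 8.20, 10.1 and 8.39% in knockout. Neither of these shares overlapped between the genotypes. The small shares of Car2 (0.735 to 1.48% in wild type, 1.91 to 1.94% in knockout) and Car9 (0.207 to 0.283% and 0.42 to 0.511%) did not either. That of Car8 overlapped, at 0.212 to 0.516% in wild type and 0.063 to 0.239% in knockout. Car4 held 24.2 to 31.5% in wild type and 29.1 to 33.8% in knockout, with overlap. Shares add up to a whole, so a lower Car5b raises the shares of the others. The sum and shares carry no length and GC offsets. With these, the genotype-only log2 fold change was 0.055 for Car5b and 1.075 for Car13.

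**Figure D3:**
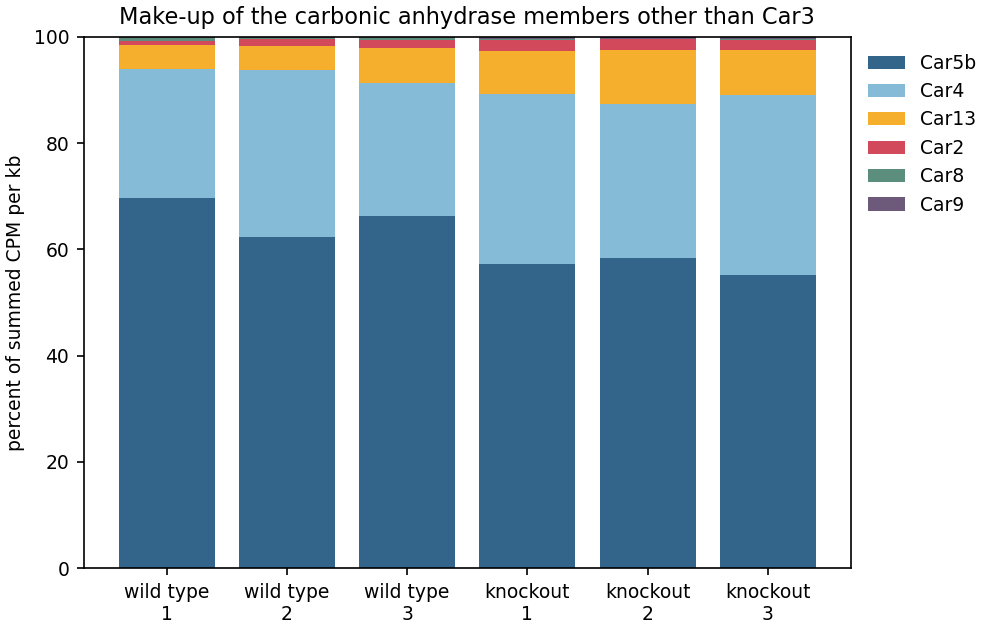
Make-up of the summed CPM per kb of the members other than Car3 in each library, as stacked percentages from 0 to 100. Car5b takes 62.2 to 69.7% in wild type and 55.2 to 58.3% in knockout, and Car13 takes 4.54 to 6.70% and 8.20 to 10.1%.

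Of the other carbonic anhydrase genes, 5 were tested, with 0 called in either fit. Car12, a membrane enzyme, stood at 0.621, 1.01 and 3.39 CPM in wild type and at 5.91, 12.03 and 4.90 CPM in knockout. All knockout libraries were above all wild-type libraries (log2 fold change 2.18, SE 0.71, adjusted p = 0.478, and 2.33, adjusted p = 0.115 with the batch term, edgeR). This was so for 8.32% of all genes, and the wild-type values of Car12 rest on 14, 26 and 91 counts. In the batch-term fit Car12 passed without wild-type replicate 3, the highest of its group (3.12, adjusted p = 0.028, edgeR), and with length and GC offsets (2.53, adjusted p = 0.046, edgeR). Car1, the cytosolic enzyme best known from red blood cells, stood at 1.86, 1.60 and 2.16 CPM in wild type and at 0.537, 0.592 and 0.148 CPM in knockout. All knockout libraries were lower, as for 6.2% of all genes, at 11, 13 and 3 counts (log2 fold change -2.12, SE 0.60, adjusted p = 0.404, edgeR). Alas2 and Slc4a1, the 2 of 9 red blood cell markers tested, summed to 38.8 to 170.7 CPM in wild type and 20.4 to 106.5 CPM in knockout, and their part in the Car1 values was not tested. Car7, Car11 and Car15 overlapped between the genotypes, with log2 fold changes of 0.19, 0.10 and 0.48. Those of Car7 and Car11 were below 0 with length and GC offsets, and that of Car15 in replicates 2 and 3 alone. Car13, Car1, Car3 and Car2 lie next to each other on chromosome 3 between 14641727 and 14900770 (mm10), and their log2 fold changes were 0.38, -2.12, -0.28 and 0.30 in that order.

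**Figure D4:**
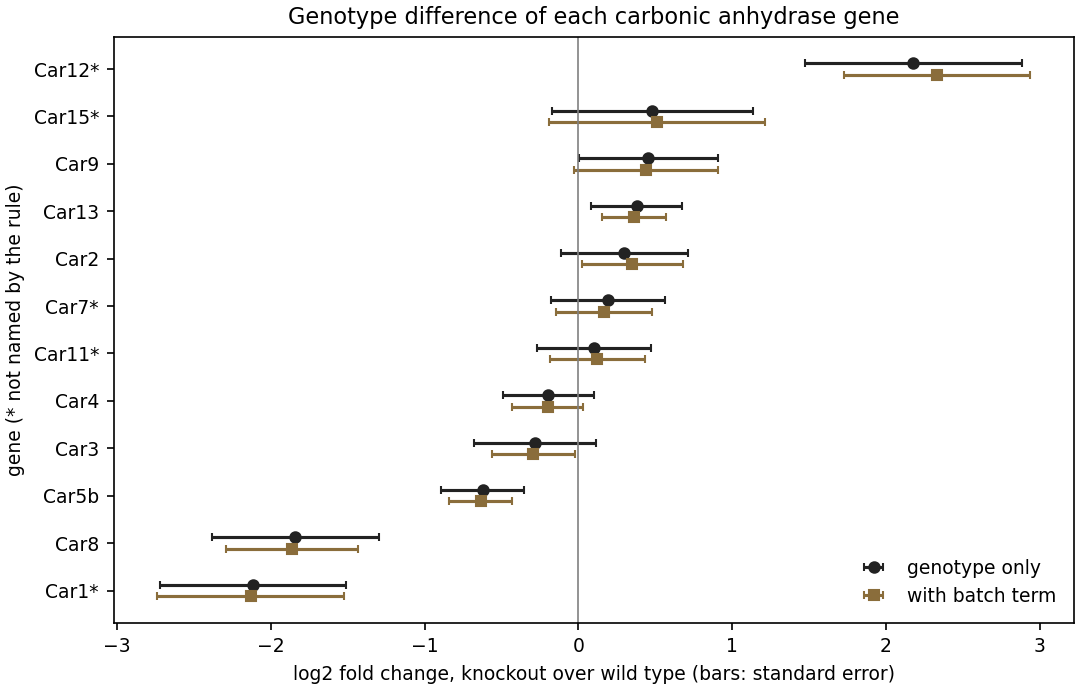
Log2 fold change of knockout over wild type for the 12 carbonic anhydrase genes in the table, with standard errors, from the genotype-only fit (circles) and the batch-term fit (squares), n = 3 libraries per genotype. Car1, Car8 and Car5b lie lowest and Car12 highest, and the fits give close values.

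Genes that handle bicarbonate, protons and carbon dioxide beside the carbonic anhydrases were mostly not called. Among bicarbonate and anion transporters, 0 of 10 tested were called in either fit and the median log2 fold change was 0.024. With genotype only the smallest p was that of Slc26a6, an anion exchanger, at 4.14 ± 0.25 and 6.61 ± 2.23 CPM. The sodium-bicarbonate cotransporter gene Slc4a4 stood at 42.6, 11.6 and 27.6 CPM in wild type and 32.6, 7.29 and 4.05 CPM in knockout, with overlap. Its log2 fold change was -0.90 with genotype only, and -1.31 with the batch term (unadjusted p = 0.0188, adjusted p = 0.159, edgeR), the smallest p of the list in that fit. Of 9 enzymes that fix bicarbonate 0 were called (median 0.10). The acetyl-CoA carboxylase gene Acaca stood at 1026, 1063 and 1143 CPM in wild type and at 492.6, 509.9 and 963.4 CPM in knockout. All knockout values were lower, and the log2 fold change of -0.72 had an adjusted p of 0.589 (edgeR), and with length and GC offsets it was -0.12. Of 11 proton and monocarboxylate transporters 0 were called (median 0.29), with the sodium-proton exchanger gene Slc9a8 at 0.59. Of 6 aquaporin and Rh genes 0 were called (median 0.15), and the ammonium and carbon dioxide channel gene Rhbg had the smallest p, at 1.35 (adjusted p = 0.374, edgeR), and was called higher by DESeq2 at 1.36 (adjusted p = 0.034).

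Genes induced by hypoxia, the condition for which Car9 is known, stood on both sides of 0, with 7 of 17 tested above it. Of the 17, 0 passed with genotype only and 1 fell with the batch term, where 0.119% of all genes fell. That gene was Vegfa, the angiogenic growth factor, at 324.5, 118.6 and 164.3 CPM in wild type and 138.5, 39.8 and 35.8 CPM in knockout with overlap (batch-term log2 fold change -1.68, adjusted p = 0.0361, edgeR). The call was lost without wild-type replicate 1 or any 1 of the knockout libraries (adjusted p 0.0501 to 0.295, edgeR), and DESeq2 gave an adjusted p of 0.236 with genotype only. The median of the 17 was -0.079 with genotype only. The pyruvate dehydrogenase kinase gene Pdk1 (-1.20) and the mitophagy gene Bnip3 (-0.84), named after their values were seen, were the other 2 with an unadjusted p under 0.05 and a lower value in knockout, so 3 of 17 were lower and 0 higher where 3.37% and 5.26% of all genes were. With the batch term 3 were lower and 2 higher, against 12.4% and 12.1%. Car9 itself stood at 0.935 to 1.68 CPM over the 6 libraries.

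The genes whose log2 CPM followed each member most closely were found among 9312 genes with a mean of at least 10 CPM, by Pearson's r over the 6 libraries. For Car3 they were Wipi1 (0.998), Rpap3 (0.993) and Tspyl1 (0.992). For Car5b they were Trf (0.982), Ppt1 (0.976) and Mmab (0.9746), and for Car8 they were C1s1 (0.993), Enpep (0.983) and Meis1 (0.983). Car4 was followed by Smox (0.990) and Gja4 (0.989), and Car13 by Rps28 (0.990), Ccl27a (0.985) and Top1mt (0.983). Car2 was followed by Hist3h2a (0.998) and S100a4 (0.995), and Car9 by Cnn1 (0.995), Zfp212 (0.995) and Ppp1r10 (0.986). These are the highest of many values over the same 6 libraries, which share their depth and composition, and no test goes with them. Among the members, Car8 and Car13 had the lowest r (-0.853), and Car2 and Car13 the highest (0.785).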

How the data were processed

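RNA-seq of 6 libraries was analysed from 1 table. The authors deposited raw counts per gene, with their log2 RPKM values, log2 fold changes, p-values and adjusted p-values, per the file headers. TopHat2, HTSeq 0.6.1 and mm10 appear, without a role, in the submitters' processing notes. The annotation and the strand setting are not stated. Deposited RPKM served 1 alternative for the Car3 share. Genotype and replicate came from the titles.

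Counts were tested with edgeR 4.0.16 (R 4.3.3): TMM, filterByExpr, which removed 0 genes, and quasi-likelihood F tests with genotype as the only term. P-values were adjusted by Benjamini-Hochberg over 14291 genes and called under 0.05. Standard errors came from the fold change and F statistic. Totals of 17489530 to 26403882 leave genes near 1 CPM imprecise. GC content came from GENCODE M21 transcripts for 13786 genes (96.5%). Loess offsets (span 0.5) removed trends with length and GC. The fits were tested on simulated counts of 14291 genes, drawn with the same spread for all genes and without a batch effect. Each run took the spread of its own fit, a biological coefficient of variation of 0.435 with genotype only and 0.32 with the batch term. The runs therefore differ in spread as well as in the term fitted. With genotype only, 1 of 100 genes changed by 1 on the log2 scale was called, and 28 of 100 changed by 2. With the batch term these were 12 and 91 of 100. False calls were 0 with genotype only and 3 with the batch term. A gene that was not called may therefore still differ.

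Alternatives were RLE factors, other filters, DESeq2 1.42.0, limma-voom 3.58.1, a replicate block, the batch term, offsets, a threshold of 0.1, and each library left out. A 2-fold minimum and a wider sum for the Car3 share were added after the data were seen. Named were the members, up to 4 genes per list by p (or those called), and 3 genes of closest pattern per member; some of these are not reported here. The members and lists were chosen with earlier results of these data known.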

Additional observations from a re-analysis of the deposited data

How the results depend on the processing

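No setting moved a member across the threshold. Of 168 alternative values for the 7 members, 165 kept direction and side. Those with no filter, a threshold of 0.1 or a 2-fold minimum repeat the main value, so their direction was fixed in advance. Car4 was 0.060 without wild-type replicate 2 and 0.005 with the batch term as well, and Car5b was 0.055 with length and GC offsets. Leaving out a library gave Car8 -2.26 to -1.48, Car5b -0.71 to -0.49, Car3 -0.42 to -0.094 and Car4 -0.34 to 0.060. Among non-members, Car7 was -0.065 with offsets, -0.068 with offsets and batch term, and -0.089 and -0.037 (batch term) without knockout replicate 3, with a highest value of 0.39. Car11 was -0.23 with offsets, -0.24 with offsets and batch term, -0.088 without wild-type replicate 1 and -0.044 with the batch term without wild-type replicate 3, with a highest value of 0.43. Car15 was -0.39 in replicates 2 and 3 alone, and -0.37 and -0.39 with the batch term without replicate 1 of wild type or knockout. The Car3 share difference was -0.12 percentage points in replicates 2 and 3 alone, and -0.26 to 0.46 with a library left out, being -0.19 without wild-type replicate 2 and -0.26 without knockout replicate 1. The cause of these changes was not tested.

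Genotype only called 0 genes. Genes called higher and lower were 171 and 100 by DESeq2, 55 and 17 with the batch term, 39 and 11 in replicates 2 and 3 alone, 13 and 4 with offsets, and 240 and 154 with offsets and batch term. RLE factors gave 1 and 0, and an adjusted p under 0.1 gave 3 and 0, while limma-voom gave 0 and 0. Leaving out a library gave 0 to 32 higher and 0 to 10 lower with genotype only, and 0 to 111 and 0 to 94 with the batch term, where 23 were higher without wild-type replicate 1, 53 higher and 72 lower without wild-type replicate 2, and 18 higher without knockout replicate 3. The replicate block gave 40 higher and 17 lower. Same-numbered libraries deviated together for replicates 1 (r = 0.638) and 2 (0.533) but not 3 (-0.102), so the numbers were not taken as pairs. Members under about 6 CPM (Car2, Car8, Car9) are limited by depth.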

Other observations

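Enzymes of central metabolism, listed for the release of carbon dioxide, the substrate of the carbonic anhydrases, stood on both sides of 0. The list also holds Acly and H6pd, whose own reactions do not release it. Of 17 tested, 12 had a log2 fold change above 0 (median 0.11, against -0.016 over all genes, of which 51% were below 0), and 0 were called with genotype only or with the batch term in edgeR's test. With genotype only 1 was higher and 2 were lower at an unadjusted p under 0.05, against 5.26% and 3.37% of all genes. With the batch term 2 were higher and 2 were lower, against 12.1% and 12.4%. Me1, which encodes the cytosolic malic enzyme, was measured at 623.9, 1037 and 1171 CPM in wild type and at 461.1, 368.1 and 389.3 CPM in knockout (log2 fold change -1.22, adjusted p = 0.393, edgeR, and -1.21, adjusted p = 0.0271, DESeq2). All knockout values were lower. The mitochondrial isocitrate dehydrogenase gene Idh2 stood at 103.4, 105.8 and 105.5 CPM in wild type and at 142.3, 212.3 and 192.8 CPM in knockout (0.80, adjusted p = 0.474, edgeR). All knockout values were higher.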
